A study of Mus musculus with 3 samples.

Results

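The integrin chains described here are 10 genes, chosen by name and matched by GENCODE M21 symbol among the 55536 annotated genes of the tables. Of these, 6 encode alpha chains (Itgal, Itga4, Itga5, Itga6, Itgae and Itgav) and 4 encode beta chains (Itgb1, Itgb2, Itgb3 and Itgb7). All 10 symbols were found. RNA was taken from CD4 T cells of the effector memory type, which are antigen-experienced helper cells, of an adult male mouse of strain B6.SJL-Ptprca Pepcb/BoyJ aged 5 months, with no treatment in the labels. This strain is a CD45 congenic line on a C57BL/6 background. The 3 polyA-selected libraries are labelled technical replicates 1, 2 and 3 of 1 biosample, so there is 1 group and no condition was compared. Each SD measures only the spread between these libraries, and each p-value sets their differences against counting error alone. The sources used here do not give the sort gate.

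Integrins are cell surface receptors made of 1 alpha and 1 beta chain, and they let T cells adhere to endothelium, to other cells and to extracellular matrix. In T cells, Itgal pairs with Itgb2 to form LFA-1, the receptor for ICAM proteins, and Itga4 pairs with Itgb1 to form VLA-4, a VCAM-1 receptor, or with Itgb7 to form the gut homing receptor for MAdCAM-1. Itgae (CD103) pairs with Itgb7 and binds E-cadherin. Signals from the T cell receptor and chemokine receptors reach the short cytoplasmic tails, where talin and kindlin bind the beta chain and switch the receptor to its active form.

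The coding sequence of the cytoplasmic tail is shown for the beta chains because the talin and kindlin binding motif lies there and tells the 4 chains apart. Each line gives the last 150 coding bases with the stop codon, from the GENCODE M21 transcript sequences on GRCm38, and capitals mark in-frame codons of the NPxY motif or of its NPxF form. The bases of each line lie in 2 exons.
Itgb1-201, chr8:128726103-128732088, plus strand: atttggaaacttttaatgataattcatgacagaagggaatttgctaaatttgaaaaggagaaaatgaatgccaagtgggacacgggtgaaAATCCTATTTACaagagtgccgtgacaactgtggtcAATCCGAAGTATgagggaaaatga
Itgb2-201, chr10:77564718-77565240, plus strand: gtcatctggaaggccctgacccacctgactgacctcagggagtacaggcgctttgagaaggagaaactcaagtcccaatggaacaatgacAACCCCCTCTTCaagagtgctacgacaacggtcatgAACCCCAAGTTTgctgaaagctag
Itgb3-201, chr11:104665549-104667145, plus strand: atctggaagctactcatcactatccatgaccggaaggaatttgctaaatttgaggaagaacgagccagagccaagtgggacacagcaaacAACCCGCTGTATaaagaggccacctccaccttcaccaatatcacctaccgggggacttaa
Itgb7-201, chr15:102216160-102216513, minus strand: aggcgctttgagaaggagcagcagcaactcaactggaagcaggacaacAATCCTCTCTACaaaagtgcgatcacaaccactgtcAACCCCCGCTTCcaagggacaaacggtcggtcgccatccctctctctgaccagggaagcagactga
Itgb1 held 2 NPxY motifs, Itgb7 held 1 NPxY and 1 NPxF, Itgb2 held 2 of the NPxF form and no NPxY, and Itgb3 held 1 NPxY. The search required NP, so the in-frame codons aatatcacctac near the end of Itgb3, which code the looser NxxY form, were not marked. Codons for NPxY or NPxF occurred in the same window in 0.792% of 21344 genes with a complete coding transcript, and NPxY alone in 0.375%. A match is a description of the letters and not evidence of binding.

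The alpha chains share a different motif, GFFKR, which lies next to the membrane and contacts the beta tail. It is shown in capitals with 15 coding bases on each side for the 2 most abundant alpha chains and for the 2 that were not detected.
Itgal-201, chr7:127330228-127333484, plus strand: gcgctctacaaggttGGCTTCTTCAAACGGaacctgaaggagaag
Itga4-201, chr2:79325683-79326552, plus strand: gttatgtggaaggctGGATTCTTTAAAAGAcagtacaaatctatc
Itgae-201, chr11:73145640-73147083, plus strand: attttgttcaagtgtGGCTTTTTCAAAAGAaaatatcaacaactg
Itga5-201, chr15:103345320-103345963, minus strand: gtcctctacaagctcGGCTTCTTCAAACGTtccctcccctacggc
The motif was present once in the leading complete coding transcript of all 6 alpha chains. Between motif and stop codon lay 138 bases in Itgal, the longest tail of the 6, and 63 in Itga5, the shortest. When the longest complete coding transcript of each gene was searched over its last 210 bases, 10 of 21344 genes (0.0469%) held GFFKR codons, and all 10 were integrin alpha genes. Itgal was not among them, because its longest transcript, Itgal-204, ends elsewhere.

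Transcripts of 8 of the 10 chains were detected, taken as a TPM (a transcript level scaled for length and library size) of at least 1 in every library. That level was reached by 11694 of the 55536 annotated genes. Itgb1 was the most abundant chain and Itgae and Itga5 were not detected. Expected counts on annotated genes were 17475086 in library 1, 15303744 in library 2 and 16882441 in library 3. The T cell genes Cd3e and Cd4 stood at mean TPM values of 626 ± 218 and 445 ± 153 (SD, n = 3), and all 8 pan T cell markers were detected, while of the CD8 cell markers Cd8a had 3 counts in all and Cd8b1 was detected at TPM values of 5.65, 8.10 and 10.79. Library 1 stood apart from libraries 2 and 3 across much of the transcriptome, so values with and without it are given for the chains that it touches. In such bulk libraries fewer cells that express a chain and less of its RNA per cell cannot be told apart.

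The beta chains were the more abundant class. Itgb1 (CD29; chr8, 128685654 to 128733200 on GRCm38), the common partner of the VLA receptors, had a TPM of 990 in library 1, 948 in library 2 and 831 in library 3, with a mean of 923 ± 82.4 (SD, n = 3). Its level was similar in all libraries, with a coefficient of variation of 8.92%. Itgb7 (chr15, 102215995 to 102231944), the partner of Itga4 in the gut homing receptor and of Itgae, had TPM values of 464, 872 and 781 and a mean of 705 ± 214 (SD, n = 3). Library 1 lay well below the others for Itgb7, and its mean without library 1 was 826. Itgb2 (CD18; chr10, 77530252 to 77565708), the leukocyte chain of LFA-1, had TPM values of 441, 491 and 439 and a mean of 457 ± 29.6 (SD, n = 3). Itgb3 (CD61; chr11, 104608000 to 104670476), the vitronectin receptor chain and a platelet integrin subunit, was the least abundant beta chain, with TPM values of 9.21, 23.7 and 20.5 and a mean of 17.8 ± 7.63 (SD, n = 3). Itgb1, Itgb7 and Itgb2 were among the most abundant genes, at the percentiles 98.8, 98.2 and 97.1 of detected protein-coding genes by mean TPM, whereas Itgb3 was at 37.1.

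Among alpha chains, Itgal and Itga4 stood at the same level when all transcripts of a gene were summed. Itgal (CD11a; chr7, 127296260 to 127335138) had TPM values of 126, 306 and 277, with a mean of 237 ± 96.6 (SD, n = 3). Itga4 (CD49d; chr2, 79255426 to 79333123) had TPM values of 133, 302 and 269, with a mean of 235 ± 89.6 (SD, n = 3). Both were lowest in library 1, and without it their means were 292 and 285. Itgav (CD51; chr2, 83724397 to 83806916), the alpha chain of the vitronectin and latent TGF-beta receptors, had TPM values of 27.4, 85.1 and 85.4 and a mean of 66.0 ± 33.4 (SD, n = 3), or 85.2 without library 1. Itga6 (CD49f; chr2, 71745616 to 71858416), a laminin receptor chain, had TPM values of 47.7, 48.9 and 44.2 and a mean of 47.0 ± 2.42 (SD, n = 3). Itga6 differed least between the libraries of all 10 chains, with a coefficient of variation of 5.15%, and Itgav stood below it in library 1 but above it in libraries 2 and 3.

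The alpha chains of the tissue residency receptor and of a fibronectin receptor were not detected, unlike their beta chains Itgb7 and Itgb1. Itgae (CD103; chr11, 73090583 to 73147446) had 28, 19 and 21 expected counts, at TPM values of 0.69, 0.56 and 0.54. Its level was 0.0941% ± 0.0475 (SD, n = 3) of that of Itgb7, its only partner. Itga5 (CD49e; chr15, 103344286 to 103366763), which forms a fibronectin receptor with Itgb1, had 3, 4 and 1 expected counts and TPM values of 0.06, 0.62 and 0.02. The higher TPM in library 2 came from 1.90 estimated counts placed on Itga5-203, a retained-intron transcript of 425 bases, so in summed TPM Itga5 stood above Itgae in that library. In complete coding transcripts Itgae was the higher in each library, at 0.61, 0.51 and 0.36 against 0.06, 0.05 and 0.02 for Itga5. The gene bounds of Itgae overlap those of Haspin, a gene on the opposite strand with a mean TPM of 1.60. Whether their exons overlap was not examined and whether counting used strand is not given, so any effect on the count of Itgae is unknown.

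**Figure D1:**
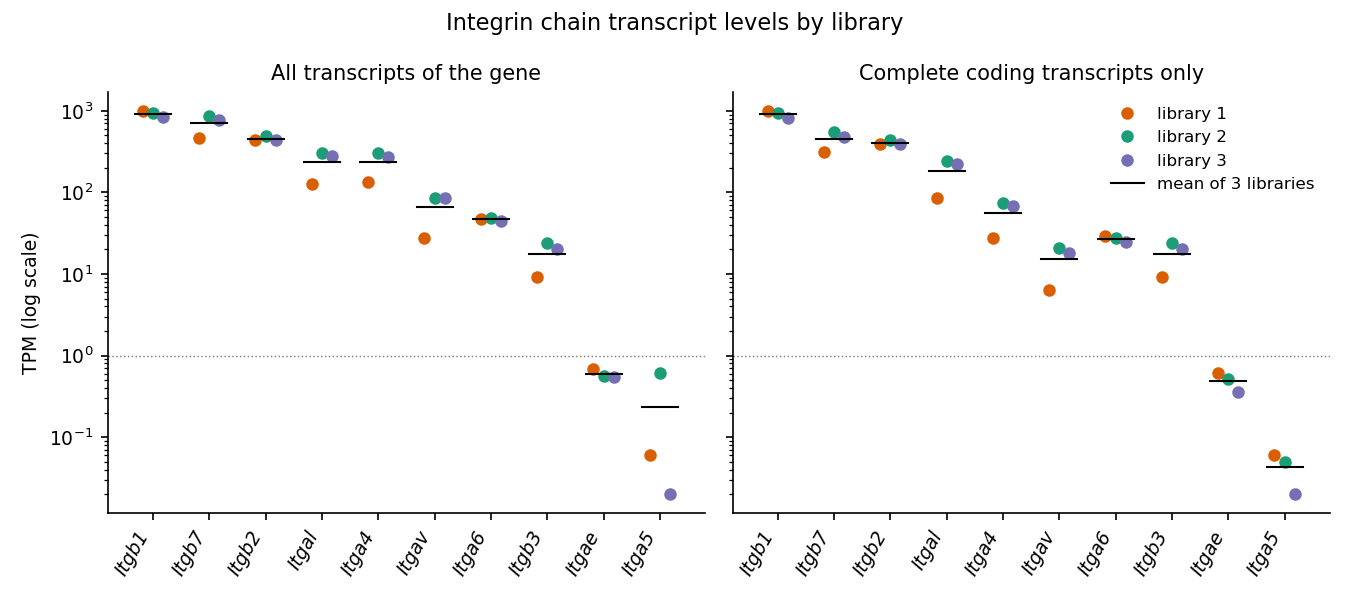
TPM of each integrin chain on a log axis, with 1 point per library and a line at the mean of the 3 libraries. The left panel sums all transcripts of a gene and the right panel only complete coding transcripts, and the dotted line marks a TPM of 1, which Itgae and Itga5 did not reach.

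The order of mean TPM ran Itgb1, Itgb7, Itgb2, Itgal, Itga4, Itgav, Itga6, Itgb3, Itgae and Itga5. Of the 9 neighbouring pairs, 4 had library values that did not overlap: Itgb2 above Itgal, Itga4 above Itgav, Itga6 above Itgb3, and Itgb3 above Itgae. Itgb1 and Itgb7 overlapped in range, although Itgb1 was higher within each of the 3 libraries, and the same held for Itgb7 and Itgb2. Itgal and Itga4, Itgav and Itga6, and Itgae and Itga5 changed places between libraries. With 3 libraries of 1 biosample no test of these neighbours was made.

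Summed over the members, alpha chains had TPM totals of 335, 744 and 676 and beta chains 1904, 2334 and 2071 in libraries 1, 2 and 3. Alpha chains thus took 14.96%, 24.2% and 24.6% of the summed TPM, a mean of 21.2% ± 5.44 (SD, n = 3), and every library had less alpha than beta transcript. In complete coding transcripts the alpha share was 13.4% ± 4.71 (SD, n = 3) and in expected counts, which are not scaled for length, 27.4% ± 7.95 (SD, n = 3). Within known pairs, Itgal stood at 28.7%, 62.4% and 63.2% of Itgb2, and Itga4 at 28.6%, 34.7% and 34.4% of Itgb7. Itga4 reached 13.4%, 31.9% and 32.3% of Itgb1, while Itga6 reached 4.82%, 5.16% and 5.32%. Only for Itgav and Itgb3, among the 8 known pairs computed, was the alpha chain the more abundant, with Itgav at 298%, 358% and 416% of Itgb3. In complete coding transcripts that order turned in every library, with Itgav at a mean TPM of 15.2 ± 7.79 and Itgb3 at 17.8 ± 7.63 (SD, n = 3). Itga4 there had a mean TPM of 56.1 ± 25.1, against 445 ± 118 for Itgb7 and 911 ± 92.6 for Itgb1 (SD, n = 3). In each library the ratios of Itga4 to Itgb7 and to Itgb1 were thus lower in complete coding transcripts than in summed TPM. These are transcript levels, and the files hold no measure of surface protein.

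The transcript tables showed that the chains differ in how much of their level lies on complete coding transcripts, here those with an annotated start and stop codon and at least 80% of the longest coding sequence of the gene. A single transcript took more than 50% of the TPM in every library for 6 members, namely Itgb1, Itgb2, Itgb3, Itgb7, Itga6 and Itgae. Itgb3-201 took 100% of Itgb3, Itgb1-201 took 98.7% ± 1.29 of Itgb1, Itgb2-201 took 89.2% ± 0.716 of Itgb2 and Itgb7-201 took 63.8% ± 4.03 of Itgb7 (SD, n = 3). Each beta chain thus had its complete coding transcript as its most abundant one. Itgb7 also had Itgb7-204, a retained-intron transcript of 449 bases, at 26.4% ± 4.96 of its TPM (SD, n = 3). Because that transcript is short, the retained-intron class held only 5.83% of the expected counts of Itgb7, and complete coding transcripts held 92.0%. Itgb2-204, a transcript marked for nonsense-mediated decay, took 8.07% ± 0.680 of Itgb2 (SD, n = 3).

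Among the 8 detected chains, Itga4 and Itgav were those whose summed TPM rested most on transcripts without a complete coding sequence. Itga4-201, the only coding transcript of Itga4, had TPM values of 27.2, 73.2 and 67.8, a mean of 56.1 ± 25.1 (SD, n = 3), or 23.3% ± 2.49 of the TPM of the gene. The processed transcripts Itga4-205 (2 exons, 2314 bases), Itga4-203 (16 exons, 1826 bases) and Itga4-202 (13 exons, 2936 bases) took 29.9%, 27.8% and 13.2% on average. In expected counts Itga4-201, which is 9767 bases long, held 58.0% ± 2.84 (SD, n = 3). The parity of Itgal and Itga4 in summed TPM was thus not seen in complete coding transcripts, where Itgal stood at 183 ± 86.6 against 56.1 ± 25.1 for Itga4 and was higher in each library. Itgav-201 took 21.9% ± 2.49 of the TPM of Itgav, while Itgav-203 (a retained intron), Itgav-207 (a processed transcript) and Itgav-205 (a coding fragment) took 21.1%, 17.2% and 14.2%. Complete coding transcripts held 23.1% ± 1.76 of the TPM of Itgav and 64.9% ± 2.50 of its expected counts (SD, n = 3).

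**Figure D2:**
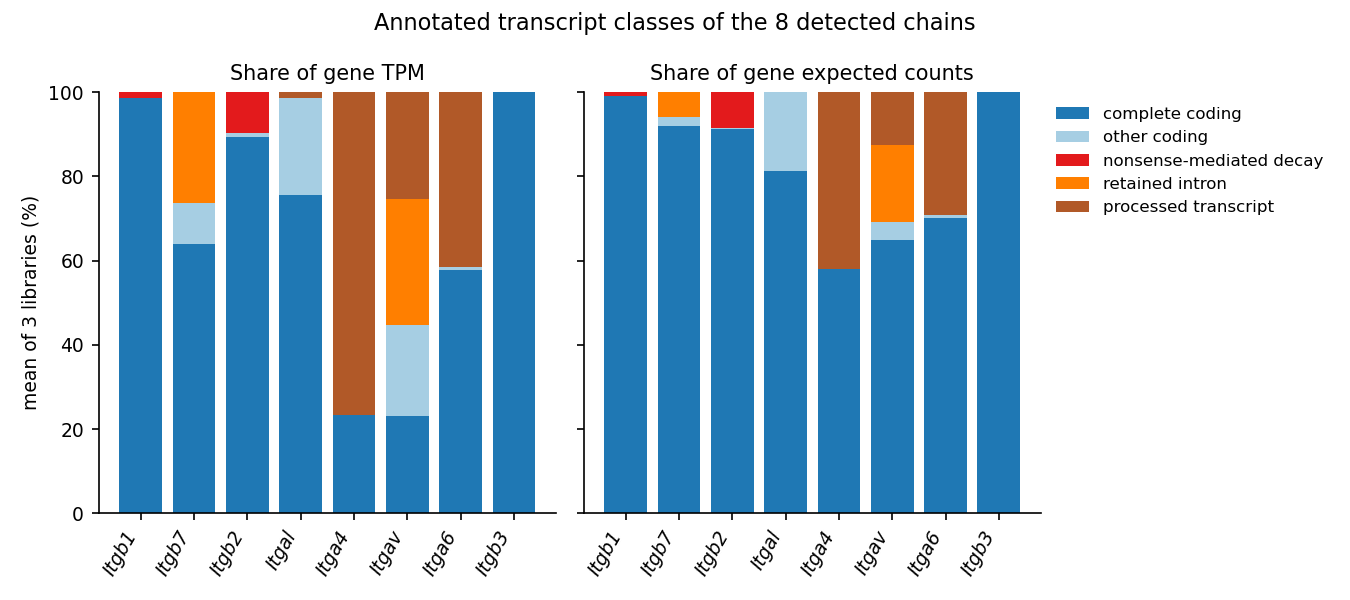
Mean share over 3 libraries of each annotated transcript class, as percent of gene TPM (left) and of gene expected counts (right), for the 8 detected chains. Itga4 and Itgav have complete coding shares of 23.3% and 23.1% of TPM but 58.0% and 64.9% of counts.

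Itga6 was read as 1 of its 2 annotated coding ends. The alpha-6 chain is known in an A and a B form, which differ in the cytoplasmic tail after alternative splicing. Itga6-201, which ends in the A form, stood at 29.6, 27.4 and 24.4 in TPM, and Itga6-202, which ends in the B form, was listed at 0 in every library. The 2 transcripts code the same bases apart from these ends, shown here from the first differing base with the stop codon in capitals.
Itga6-201, chr2:71853534-71853641, plus strand, exon 25 of 26: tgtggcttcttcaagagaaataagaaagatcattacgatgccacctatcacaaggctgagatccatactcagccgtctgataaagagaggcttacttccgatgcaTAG
Itga6-202, chr2:71855854-71856015, plus strand, exon 26 of 26: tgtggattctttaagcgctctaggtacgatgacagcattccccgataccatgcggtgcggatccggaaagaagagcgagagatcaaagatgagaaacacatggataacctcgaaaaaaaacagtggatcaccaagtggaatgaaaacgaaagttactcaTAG
The A end has 108 bases within an exon of 130 bases, and the B end has 162 bases in the last exon. Itga6-201 took 57.7% ± 3.72 of the TPM of Itga6, and Itga6-203, a processed transcript of 3 exons, took 35.2% ± 3.13 (SD, n = 3). Of the 3 annotated coding ends of Itgal, the end of Itgal-201 held 100%, 99.9% and 99.9% of the TPM of coding transcripts with a stop codon.

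Itgal was divided among 3 coding transcripts. Itgal-201 took 38.3%, 39.4% and 47.5% of the TPM, Itgal-202 took 28.4%, 40.4% and 32.2%, and Itgal-203, which has 21 exons against 31, took 32.5%, 18.7% and 18.3%. Itgal-201 had the highest share in libraries 1 and 3 and Itgal-202 in library 2. The coding sequences of Itgal-201 and Itgal-202 differ by 3 bases at the end of exon 18, shown in capitals with 15 coding bases on each side.
Itgal-201, chr7:127317364-127317366, plus strand: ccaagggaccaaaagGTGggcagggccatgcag
Itgal-202 lacks those 3 bases, so reads elsewhere in the coding sequence cannot assign a message to either, and their separate shares are uncertain. Itgal-203 codes 2295 bases, not counting the stop codon, against 3486 for Itgal-201.

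The libraries differed beyond counting error at 8 of 9 chains tested. The test was Pearson's chi-square test of expected counts over libraries, with adjusted p below 0.05 (Benjamini-Hochberg over 13177 genes), and Itga5 had too few counts for it. Across all genes tested 75.8% were called, so the members' count lies near the background. Dividing the statistic by the median overdispersion of all genes left 6 of 9 members, without Itgb2 and Itga6, against 21.6% of all genes. The adjusted chi-square p was 0.00493 for Itga6 and 1.46e-06 for Itgb2, and Itgae missed the threshold at 0.620. Libraries 2 and 3 alone differed at 5 of 9 members (Itgal, Itga4, Itgb1, Itgb2 and Itgb7) against 16.7% of genes. The chi-square grows with the count of a gene. Itgb1 was called there at 0.206% of expected counts in library 2 and 0.191% in library 3, with a log2 ratio of TPM of 0.19. Over all 3 libraries the share called was 82.4% among genes with at least 100 counts. Members and all genes were not matched for abundance, so these shares do not show that the chains vary more than other genes. These tests compare libraries and say nothing of conditions.

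Library 1 held less transcript of 5 chains than both other libraries, namely Itgav, Itgb3, Itgal, Itga4 and Itgb7. Against the geometric mean of libraries 2 and 3 the log2 ratio of TPM in library 1 was -1.64 for Itgav, -1.26 for Itgb3, -1.21 for Itgal, -1.10 for Itga4 and -0.83 for Itgb7. All 5 were at least 1.5-fold lower, a mark reached by 26.7% of detected genes, and 47.7% of detected genes were lower in library 1 than in both others. Itgb1 was higher in library 1 than in both others, as were 42.2% of detected genes. Itgb1, Itga6 and Itgb2 had ratios of 0.16, 0.04 and -0.07, and the sign of Itgb2 turned to 0.02 under TMM scaling. The 8 detected chains thus formed a set of 5 that were lower in library 1 and a set of 3 whose ratios were close to 0, while libraries 2 and 3 differed by at most 0.21 in any of the 8. The median ratio was -0.97 over the 8 chains and -0.06 over all detected genes. In the whole-number counts deposited on the older annotation the ratios lay closer to 0 for all 5. They were -1.53 for Itgav, -0.93 for Itgb3, -0.68 for Itgal, -0.72 for Itga4 and -0.14 for Itgb7, so that Itgb7 no longer differed by 1.5-fold. Those counts were a smaller part of the expected counts in abundant genes, with medians of 55.6% from 100 to 1000 counts and 11.2% from 10000 upward. Whether this made the ratios smaller was not tested. Library 1 was also the deepest of the 3, and the part of depth in the differences between libraries was not tested.

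**Figure D3:**
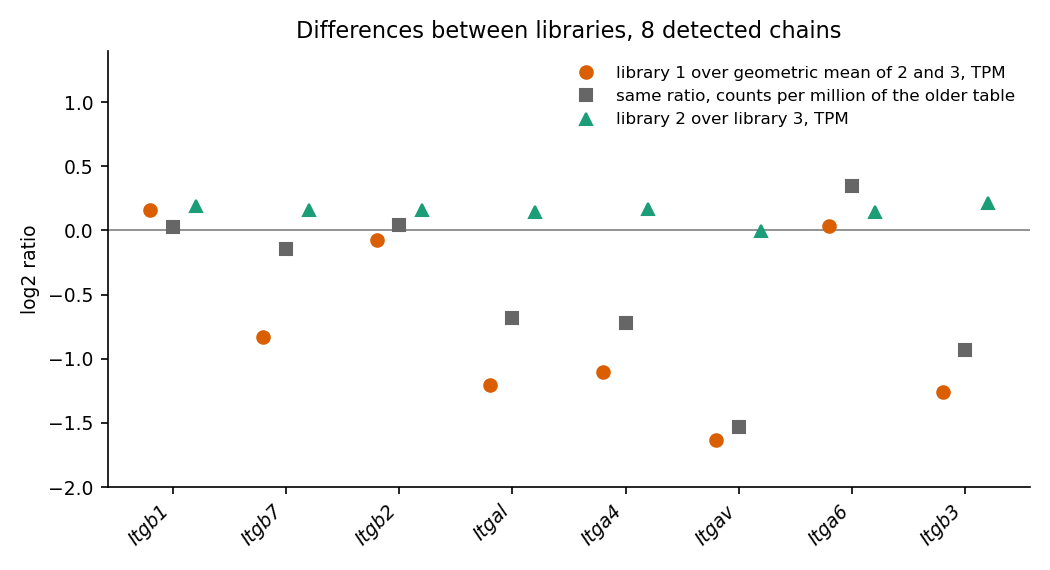
log2 ratio of library 1 to the geometric mean of libraries 2 and 3 for the 8 detected chains, in TPM (circles) and in library-size-scaled counts of the older table (squares), with library 2 over library 3 in TPM as triangles. Itgav, Itgb3, Itgal and Itga4 lie at -0.68 or below in both measures, and the triangles lie between -0.01 and 0.21.

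Most other integrin genes lay under the detection level, although only Itgb2l had no count. Of 17 further alpha and beta genes 4 were detected: Itga7, a laminin receptor chain, at 36.2 ± 8.92, Itga1, a collagen receptor chain, at 6.05 ± 0.951, Itgb5, a partner of Itgav, at 3.24 ± 0.295, and Itga3 at 2.53 ± 0.585 in mean TPM (SD, n = 3). Itgb8, which with Itgav activates latent TGF-beta, had TPM values of 0.91, 1.56 and 1.27 and missed detection in library 1. The alpha partners of Itgb2 in myeloid cells were low, with Itgam at 0.217 and Itgax at 0.393 in mean TPM, which leaves Itgal as the one detected partner of Itgb2. None of 8 monocyte, macrophage and neutrophil markers was detected, their summed TPM lay between 2.42 and 3.03, and S100a8 and S100a9 had no count. None of 5 B cell markers was detected either. By contrast, 1 of 5 dendritic markers was detected (Zbtb46, mean TPM 14.0) and 1 of 4 NK markers (Klrb1c, 8.68). The same held for 1 of 6 epithelial, endothelial and stromal markers (Epcam, 3.44) and 1 of 4 mast cell and basophil markers (Kit, 1.30). Beside Itgb3, none of 5 platelet markers was detected, their summed TPM lay between 0.48 and 1.58, and Gp9 and Ppbp had no count. Itga2b, the platelet partner of Itgb3, had a mean TPM of 0.677. The mean TPM of Itgb3 without library 1 was 22.1.

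Genes of integrin activation and signalling were well represented. The median TPM of the 22 activation genes was 179, and 19 of them passed detection. The highest were Rac2, a small GTPase of blood cells, at 1343 ± 47.5, Rap1b, the GTPase that recruits talin, at 715 ± 298, and Fyb, the adaptor ADAP, at 618 ± 21.04 (SD, n = 3). The tail binders themselves were present as 1 gene of each family: Tln1 (talin) at 146 ± 69.9 (SD, n = 3) and Fermt3, the leukocyte kindlin, at 171.8 ± 19.96 (SD, n = 3), while Tln2, Fermt1 and Fermt2 were not detected. Tln1 was lower in library 1, with a log2 ratio of -1.50, and Fermt3 stood at -0.24. Of 15 inhibitors and tail binders 10 were detected, led by Cytip, an inhibitor of cytohesin, at 573 ± 273, Slc3a2, the CD98 heavy chain, at 460 ± 32.6 and Acap1, an integrin recycling factor, at 420.2 ± 43.4 (SD, n = 3). Of 21 focal adhesion and outside-in genes 13 were detected, led by Fyn, a Src family kinase, at 479 ± 26.6, Lpxn, leupaxin, at 292 ± 13.2 and Actn4, an actinin, at 235 ± 28.3 (SD, n = 3).

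Ligands were fewer. Of 21 ligand genes 3 were detected, namely Icam1 at 109.9 ± 18.6, Tgfb1, whose latent peptide binds Itgav receptors, at 103 ± 65.6, and Icam2 at 58.9 ± 8.79 in mean TPM (SD, n = 3). Vcam1, Madcam1 and Fn1 were not detected. Cdh1, the Itgae ligand, and Lamc1, a laminin chain, had mean TPM values of 1.30 and 2.16 but 0.80 and 0.94 in library 1, under the detection level. Library 1 was lower than both others at 9 of 19 detected activation genes and higher at 8, with a median log2 ratio of 0.01, beside 47.7% lower and 42.2% higher among all detected genes. It was lower at 3 and higher at 7 of 10 detected inhibitors and tail binders, with a median of 0.17. Of the 13 detected focal adhesion and outside-in genes 6 were lower and 4 higher, and all 3 detected ligands were lower.

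**Figure D4:**
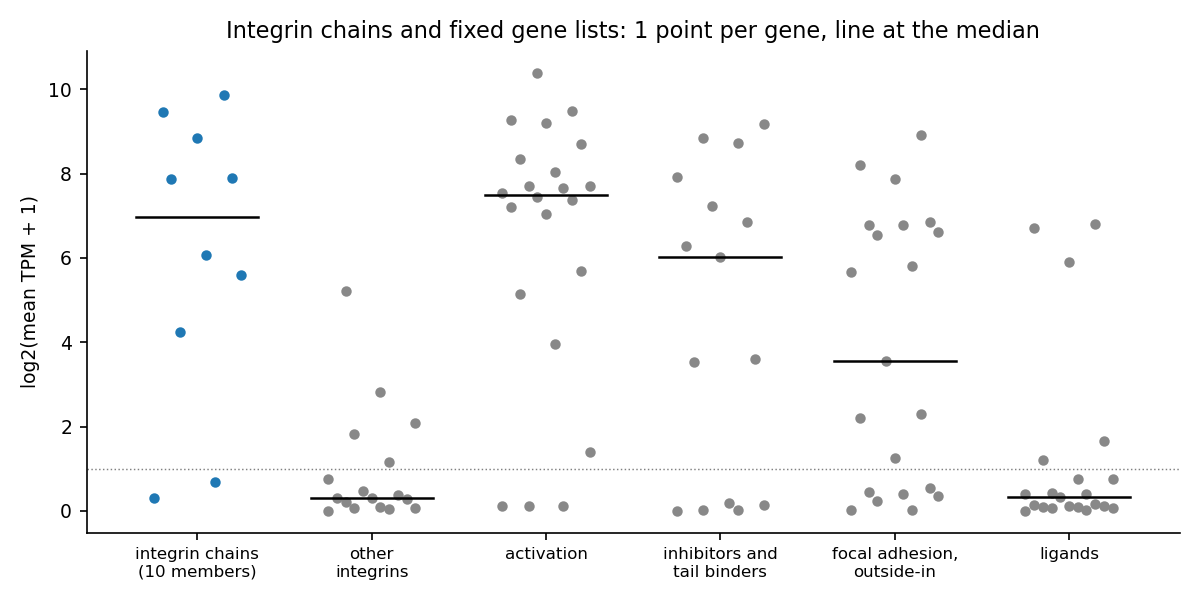
log2(mean TPM + 1) of the 10 integrin chains and of the genes in 5 lists, with 1 point per gene and a line at the median of each list. The dotted line is a TPM of 1, and 2 of the 10 chains lie under it against 12 of the 17 other integrin genes.

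For 3 chains the protein-coding genes nearest in level were listed, by the largest absolute difference in log2(TPM + 1) over the 3 libraries. Itgb1 was nearest to Tgif1, Ywhaz and Srrm2, with differences of 0.08, 0.14 and 0.16. Itgal was nearest to Ier5, Tcf25 and Rpl22l1, at 0.11, 0.12 and 0.13. Itgae was nearest to Hspa12a, Rsph1 and Tigd3, at 0.03, 0.05 and 0.05, all at TPM values below 1. With 3 libraries of 1 biosample this likeness describes levels only.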

How the data were processed

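The data are 3 libraries labelled technical replicates of 1 biosample. Per the deposited README files the tables use mouse build mm10, with GENCODE M21 annotation for the gene and transcript tables and GENCODE M4 for a further gene table. Not given in the sources used here were the names of the aligner and quantifier. The authors deposited expected counts (estimates that share reads among transcripts), TPM scaled to 1e6 within each library, and the percent of each gene's TPM taken by a transcript. The M4 table holds whole-number counts, deposited without a header. The score columns, interval bounds of TPM deposited by the authors, were not used. Rows without an Ensembl ID (0.304%, 0.298% and 0.226% of expected counts) entered neither library sizes nor tests.

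Symbols, transcript classes and coordinates came from GENCODE M21, and sequences from its transcript file. The chi-square test used rounded expected counts of genes with at least 30 counts in total, with Benjamini-Hochberg adjustment. It was tested on simulated Poisson counts, which hold counting error alone. The median overdispersion of the real data was 19.9, so that simulation does not show how the test behaves on them. The chi-square p-values reflect counting error alone, as if each read were an independent molecule. edgeR 4.0.16 (TMM factors) and DESeq2 1.42.0 (size factors) in R 4.3.3 gave the alternative scalings. No quasi-likelihood test was run, since there is 1 group. Other steps used scipy 1.17.1, pandas 2.3.3 and numpy 2.4.6 under Python 3.11.15. Named genes were the 10 members, the 3 highest detected genes of each list, all detected other integrins, transcripts at 10% or more of a gene on average, and the 3 genes nearest in level to Itgb1, Itgal and Itgae. Other genes named were chosen for their known role as partners, tail binders, ligands or markers, after their values were seen. The members, lists and tests were chosen with earlier results of these data known.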

Additional observations from a re-analysis of the deposited data

How the results depend on the processing

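The number of members detected was 8 under every alternative but a minimum TPM of 0.5, which gave 9. Leaving out a library cannot lower the number detected. The number varying between libraries, 8, was 6 with the overdispersion divisor and with the M4 counts, and ranged from 5 (without library 1) to 7 when a library was left out. Minimum counts and scaling left it at 8. Of all genes tested, 9983 were called, against 2842 with the overdispersion divisor and 2079 without library 1. The alpha share of 21.2% was 15.5% in protein-coding transcripts, 27.4% in expected counts and 13.4% in complete coding transcripts, and it ranged from 19.6% to 24.4% when a library was left out. Non-overlapping neighbours numbered 4, against 5 under TMM scaling and 6 in either coding set. With a library left out they numbered 5 to 7, 7 being without library 2. In an unchanged order, leaving out a library cannot lower that number, so the rise is no sign of stability. Members with a transcript above 50% numbered 6, against 3 at a threshold of 75%, 8 with shares among protein-coding transcripts and 6 to 7 with a library left out. The 8 took in Itga4 and Itga5, which each have only 1 protein-coding transcript and so stand at 100% by definition. Leaving out a library cannot lower the number with a transcript above 50%. Without library 3, Itga4 stood above Itgal, and in complete coding transcripts Itgav fell below Itgb3 in the order. Members higher in library 1 numbered 2 (Itgb1 and Itgae), 3 under TMM scaling and with the M4 counts, and 4 in complete coding transcripts, while those lower numbered 5 or, with the M4 counts, 6. Restricting to complete coding transcripts moved 6 of the 10 mean TPM values by more than 1 SD, whereas TMM scaling moved none by that much. Leaving out 1 of 3 libraries cannot move a mean by 1 SD, so this mark could not test it. The complete coding set was chosen after seeing the data. Counts of 8 in all for Itga5 and 68 for Itgae limit what can be said of both. No paired analysis was possible because there is 1 group.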

Other observations

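The whole-number counts on the older annotation were a smaller part of the expected counts for Itgb1 than for any other chain. Over the libraries they came to 13.9% for Itgb1, 30.96% for Itgb2, 31.1% for Itga4, 33.6% for Itgb7, 38.4% for Itgal, 39.8% for Itgb3, 45.01% for Itgav, 54.1% for Itga6 and 86.8% for Itgae. Itgb1 had 4829, 4792 and 4793 of these counts against expected counts of 40055, 31559 and 32194, so that Itgal, with 3026, 4881 and 4919, exceeded it in libraries 2 and 3. Over all genes in both tables the median was 55.6% at mean expected counts from 100 to 1000, 44.4% from 1000 to 10000 and 11.2% from 10000 upward. From 10000 upward the quartiles were 4.85% and 19.5%. Of the chains at that level, Itgb1 lay between these quartiles, and Itgb2, Itgb7 and Itgal lay above them. The cause was not tested.

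Itgb1-202, a transcript marked for nonsense-mediated decay, stood at 0.26, 11.7 and 21.5 in TPM in the 3 libraries, while Itgb1-201 had 989, 936 and 809. Itgav-206, a coding fragment of 688 bases, was listed at 0 in library 1 and reached 7.11 and 12.1 in the other libraries. Both transcripts were chosen after their values were seen.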
